A study of Rattus norvegicus with 4 samples.

Results

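BMP, TGF-beta and AMH signalling was read through 10 genes: the ligands Bmp4 and Tgfb2, the receptors Amhr2, Bmpr2 and Tgfbr2, the Smad proteins Smad3 and Smad7, and the pathway-responsive genes Id1, Id2 and Tgfbi. Every probe set annotated with exactly 1 of these symbols was taken, which gave 15 probe sets for 9 genes. The array held 31099 probe sets in all, and 14217 genes had a probe set that names them alone. No probe set carried the symbol or the gene identifier of Tgfbr2, the type II receptor for TGF-beta, so that Tgfbr2 was not analysed here.

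The samples were primary granulosa cells, which surround the oocyte and make estradiol, from estradiol-treated female Sprague-Dawley rats aged 23 to 25 days. All cells were grown without serum in the medium and exposed to an adenovirus for 4 h, and then received either vehicle or 100 ng/ml of FSH, the pituitary hormone that drives follicle growth, for 24 h. GFP vehicle and GFP FSH carried the green fluorescent protein virus as the control, FOXOA3 FSH carried constitutively active FOXO1, and FOXOA3-mDBD FSH carried the form of FOXOA3 that is mutated in its DNA-binding domain. There was 1 array for each of the 4 groups, and the effect of a FOXO1 vector without FSH was not analysed here. How many cultures lie behind an array, and how much virus was used, is not stated in the labels. Below, the arrays are given in the order GFP vehicle ("vehicle"), GFP FSH ("FSH alone"), then the FOXOA3 and the FOXOA3-mDBD arrays, both of which also had FSH.

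In this signalling family a secreted dimeric ligand brings together type II and type I receptor kinases on the cell surface, and the type I receptor phosphorylates Smad proteins that move to the nucleus with Smad4. TGF-beta and activin signal mainly through Smad2 and Smad3, whereas BMPs and AMH signal mainly through Smad1, Smad5 and Smad9. Smad6 and Smad7 inhibit the pathway and are themselves induced by it. In the follicle, granulosa cells receive such ligands from the oocyte, the theca and each other, and AMH restrains the response of growing follicles to FSH.

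The unit of every level is the MAS5 signal, a linear intensity per probe set, and levels were compared only within a probe set, apart from the summed signals of marker lists. Signals under a floor of 100.5, the median over all rat probe sets and arrays, were raised to it before a ratio was taken. A fold with 1 signal at the floor is a lower bound, written "at least", and a gene was measured in a comparison when its higher signal was above the floor. With 1 array per group no difference has a replicate check or a p-value, so that "higher" and "lower" compare arrays. In bulk RNA, fewer cells of a type and less RNA per cell cannot be told apart.

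Between 47.9% and 52.8% of rat probe sets were above the floor on the 4 arrays. The geometric mean over 27 poly-A spike probe sets, which read bacterial RNAs put into the sample, was 19.3 with vehicle, 249 with FSH alone, 19.7 with FOXOA3 and 311 with FOXOA3-mDBD. GFP FSH against GFP vehicle and FOXOA3 FSH against GFP FSH cross this difference, and FOXOA3-mDBD FSH against GFP FSH does not. The quotient of 3' over 5' probes of beta-actin ran from 5.15 on GFP vehicle to 12.0 on GFP FSH, and that of GAPDH from 2.32 to 3.15. Foxo1 itself had a signal of 8149 with vehicle, 2862 with FSH alone, 3834 with FOXOA3 and 961 with FOXOA3-mDBD, which does not check the vectors because the part of the transcript under its probes is not given. Cyp19a1, the aromatase of FSH-treated granulosa cells, went from 35.0 on GFP vehicle to 13042 on GFP FSH, at least 130-fold.

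**Figure D1:**
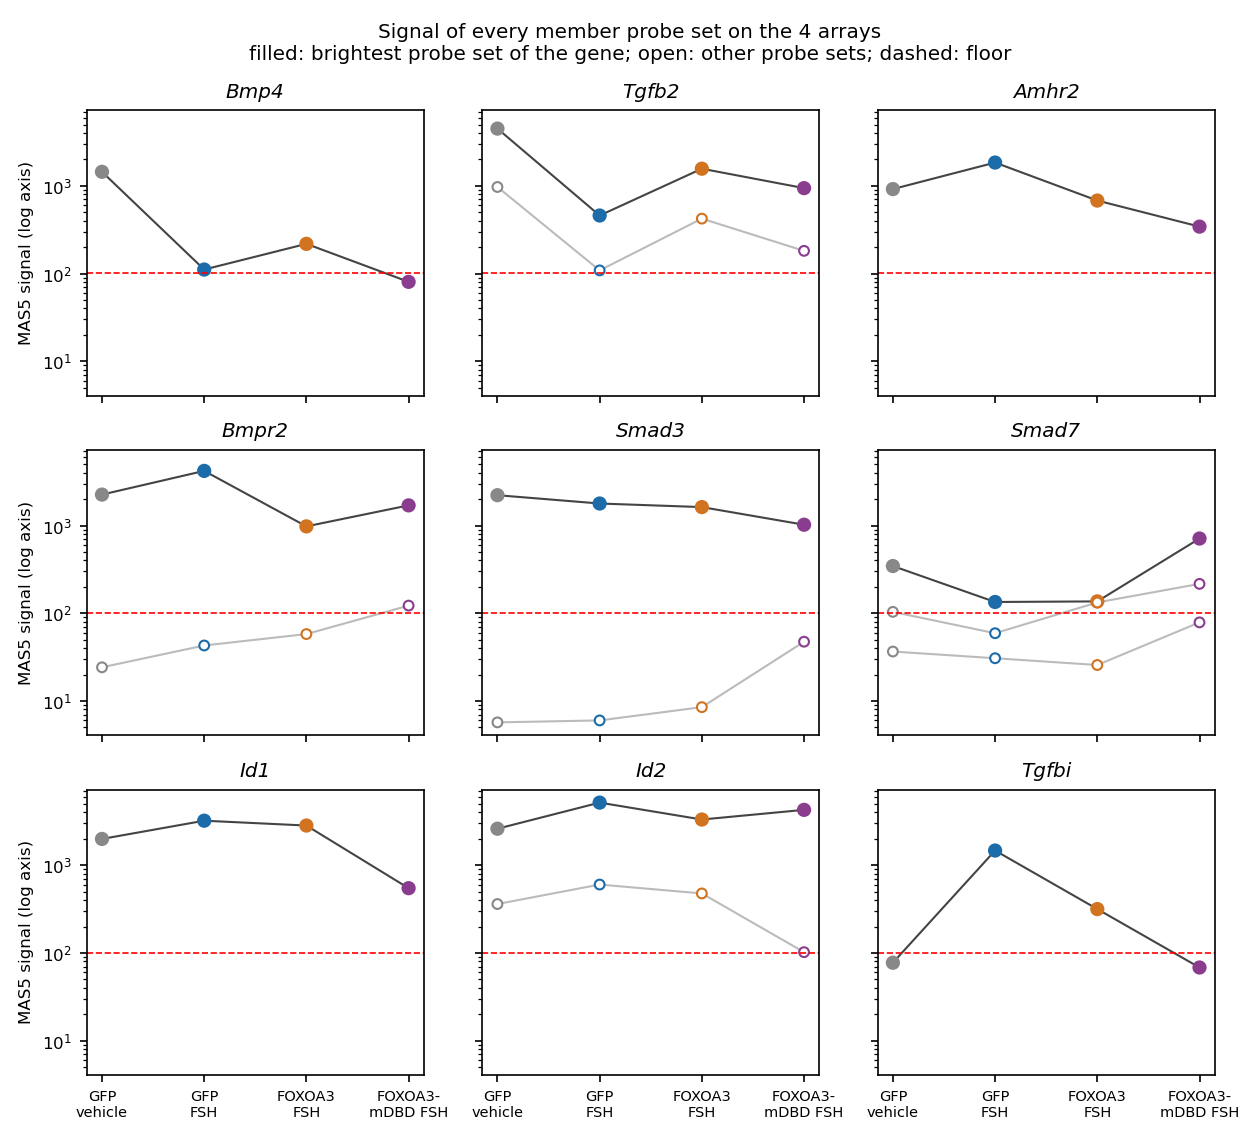
MAS5 signal (log axis) of the 15 probe sets of the 9 genes on the 4 arrays, with the brightest probe set of a gene filled and the others open; the dashed line is the floor of 100.5. Bmp4 and Tgfb2 were brightest on GFP vehicle, Tgfbi on GFP FSH, and Smad7 on FOXOA3-mDBD FSH.

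Both ligands were far lower on the array with FSH than on the array with vehicle. Bmp4, which in the ovary comes largely from theca and stroma and acts on granulosa cells through BMP receptors, had a signal of 1446 with vehicle, 111 with FSH alone, 218 with FOXOA3 and 80.5 with FOXOA3-mDBD. It was thus well above the floor on GFP vehicle alone, and its signals on the 3 FSH arrays lay close to the floor or under it. With FSH it was 13.0-fold lower, and 15 of the 8641 genes above the floor on both arrays, Bmp4 included, had a log2 ratio as low as its -3.70. Under a floor at the 75th percentile of signals, 542.5, the log2 ratio was bounded at -1.41.

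Tgfb2, a TGF-beta isoform, is read by a pair of probe sets. The brighter one had a signal of 4496 with vehicle, 459 with FSH alone, 1569 with FOXOA3 and 942 with FOXOA3-mDBD. The dimmer one gave 971, 109, 423 and 182 on the same arrays, so that both put the arrays in the same order. With FSH the reading was 9.79-fold and 8.94-fold lower by these probe sets, and 26 genes above the floor on both arrays had a log2 ratio as low as -3.29.

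The promoters of Bmp4 and Tgfb2, the ligands lower with FSH, and of Tgfbi, the member higher with it by the largest ratio, are shown as the 250 bases before the annotated start site (RefSeq, rat build GRCr8), 5′ to 3′ in the gene's direction. Capitals mark matches to the Smad box CAGAC, the BMP-type Smad element GGCGCC, the cyclic AMP response motif TGACG and the FOXO core TGTTTAC, on either strand. These promoters were chosen after the values were seen.
Bmp4 (chr15:22101934-22102183, minus strand): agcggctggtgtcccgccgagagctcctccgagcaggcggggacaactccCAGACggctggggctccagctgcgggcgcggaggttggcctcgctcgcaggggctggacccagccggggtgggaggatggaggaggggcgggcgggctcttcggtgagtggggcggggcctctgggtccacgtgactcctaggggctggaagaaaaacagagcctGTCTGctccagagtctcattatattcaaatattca
Tgfb2 (chr13:100792686-100792935, minus strand): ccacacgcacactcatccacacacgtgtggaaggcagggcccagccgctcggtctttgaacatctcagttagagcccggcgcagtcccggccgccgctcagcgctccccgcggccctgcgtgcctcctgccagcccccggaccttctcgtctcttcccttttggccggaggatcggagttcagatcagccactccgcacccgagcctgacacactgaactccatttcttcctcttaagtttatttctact
Tgfbi (chr17:7990114-7990363, minus strand): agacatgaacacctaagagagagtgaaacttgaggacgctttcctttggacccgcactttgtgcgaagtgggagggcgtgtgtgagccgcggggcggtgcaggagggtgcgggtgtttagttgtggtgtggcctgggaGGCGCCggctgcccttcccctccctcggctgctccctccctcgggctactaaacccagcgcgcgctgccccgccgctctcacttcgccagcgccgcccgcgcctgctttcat

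The Bmp4 window held 2 Smad boxes, that of Tgfbi 1 GGCGCC element and that of Tgfb2 none of these motifs. No match overlapped another. Over all 10 genes, Tgfbr2 included, the Smad box was in 1 window, GGCGCC in 2, TGACG in 1 and the FOXO core in 0. Of 33469 rat promoter windows of the same length, 42.9% held a Smad box, 8.69% GGCGCC, 18.2% TGACG and 3.21% the FOXO core. A match describes letters in this window and is not evidence of binding.

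With FOXOA3 the Tgfb2 signal was 3.42-fold higher than on GFP FSH by the brighter probe set and 3.89-fold by the dimmer one. It nevertheless stayed 2.87-fold below the signal of GFP vehicle. Bmp4 was 1.96-fold higher than on GFP FSH, just inside 2-fold, and 6.63-fold lower than on GFP vehicle, where 9 of 8938 genes above the floor on both arrays had a ratio as low. With FOXOA3-mDBD, Tgfb2 was 2.05-fold higher than on GFP FSH by the brighter probe set but 1.67-fold by the dimmer one. The mean of both was under 2-fold, with a log2 ratio of 0.89. By the brighter one, 905 of 8326 genes above the floor on both arrays had a ratio as high. Bmp4 was under the floor with FOXOA3-mDBD, at least 14.4-fold below GFP vehicle.

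Among markers of theca, stroma and smooth muscle, 8 of 12 on the array were measured with FSH, and 4 of them were at least 2-fold lower and 0 higher, beside 11.1% and 6.84% of all measured genes. The lower ones were Acta2, Tagln, Col3a1 and Aspn, whereas Dcn, Lum, Myh11 and Ogn were within 2-fold. Their summed signal was 26909 with vehicle, 15314 with FSH alone, 30301 with FOXOA3 and 16324 with FOXOA3-mDBD. Single genes carry these sums, with Ogn at 12973 of that with FSH alone, Dcn at 12504 of that with FOXOA3 and Aspn at 11514 of that with FOXOA3-mDBD. Against FSH alone, 5 were higher and 2 lower of 9 with FOXOA3, beside 11.1% and 6.99% of all genes, and 1 was higher and 3 lower of 7 with FOXOA3-mDBD, beside 12.5% and 19.1%. Cyp17a1 and Insl3, which define theca cells, and Col1a1 were under the floor on all 4 arrays, whereas smooth muscle actin Acta2 read 3711, 192, 594 and 215 in that order. The list did not move as 1: the matrix gene Ogn read 9115, 12973, 2562 and 3329, and Aspn read 1099, 22.4, 3305 and 11514, at least 115-fold higher with FOXOA3-mDBD than with FSH alone. The part of these cells in the Bmp4 and Tgfb2 signals was not tested.

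The granulosa cell label was set beside 9 markers, of which all but Fshr were on the array. Passing the floor is a weak check, since 47.9% to 52.8% of rat probe sets were above it. At least 7 of the 8 markers on the array were above the floor on every array. Their summed signal was 21467 with vehicle, 89793 with FSH alone, 34534 with FOXOA3 and 19814 with FOXOA3-mDBD. Of these markers 5 were higher and 0 lower with FSH, 0 higher and 6 lower with FOXOA3 against FSH alone, and 0 higher and 8 lower with FOXOA3-mDBD, beside 6.84% of all genes higher with FSH and 6.99% and 19.1% lower with the vectors. By summed signal they were brightest on the same array as Amhr2, Bmpr2 and Tgfbi, and their part in those results was not tested. The largest readings in the sum with FSH alone were Inha at 29569, Cyp11a1 at 22700 and Cyp19a1 at 13042. With FSH, Cyp11a1 was 131-fold and Cyp19a1 at least 130-fold higher. Foxl2 alone was brightest with vehicle, at 5546, 3536, 4297 and 994 in the array order above. Of the leukocyte markers, Ptprc, Cd68, Cd3e and Cd163 were under the floor on all arrays, and 3 or 4 of 8 were measured in each comparison. Their summed signal was 2896, 1604, 4252 and 1817 in the array order above, highest with FOXOA3. With FSH 1 of 3 was lower, Cd14 by 2.98-fold, beside 11.1% of all genes. With FOXOA3 against FSH alone 2 of 4 were higher, beside 11.1%, Cd14 by 3.55-fold and Lyz2 by 2.14-fold. With FOXOA3-mDBD against FSH alone 0 of 3 passed 2-fold, beside 31.7% in either direction. Cd14 was thus lower with FSH and higher with FOXOA3, as Tgfb2 was, and its part in that result was not tested. Of 5 endothelial markers 1 or 2 were measured, of 4 surface epithelium markers 0 or 1, and of 5 oocyte markers 2 or 3, with summed signals of 306 to 587, 82.1 to 376 and 443 to 1200. Of the measured oocyte markers 2 of 3 were higher with FSH, beside 6.84% of all genes, and 1 of 1 endothelial marker was lower, beside 11.1%. With FOXOA3 against FSH alone 1 of 3 oocyte markers was lower, beside 6.99%, and 0 of 2 endothelial markers passed 2-fold. With FOXOA3-mDBD against FSH alone 0 of 3 oocyte markers passed 2-fold and 1 of 2 endothelial markers was higher, beside 12.5%. No surface epithelium marker passed 2-fold. Gdf9 and Bmp15 of the oocyte list are also among the ligands.

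Both receptors on the array were brightest on GFP FSH. Amhr2, the type II receptor through which AMH acts, had a signal of 919 with vehicle, 1844 with FSH alone, 680 with FOXOA3 and 343 with FOXOA3-mDBD. It was 2.01-fold higher with FSH, at the edge of the 2-fold call, and the log2 ratio was 0.99 with a pseudocount of 16 in place of the floor. The signal was 2.71-fold below GFP FSH with FOXOA3 and 5.37-fold below it with FOXOA3-mDBD. The FOXOA3-mDBD array was also 2.68-fold below GFP vehicle, while FOXOA3 FSH and GFP vehicle were within 2-fold.

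Bmpr2, the type II receptor shared by several BMPs, had a signal of 2253 with vehicle, 4198 with FSH alone, 978 with FOXOA3 and 1698 with FOXOA3-mDBD by its brighter probe set. Here the lowest array was FOXOA3 FSH, not FOXOA3-mDBD FSH as for Amhr2. Against GFP FSH it was 4.29-fold lower with FOXOA3, and 44 of 8744 genes above the floor on both arrays had a log2 ratio as low as -2.10. With FOXOA3-mDBD it was 2.47-fold lower, and 1039 of 8326 genes above the floor on both arrays were as low. The FSH array was 1.86-fold above vehicle.

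The dimmer Bmpr2 probe set read 24.2, 42.9, 57.9 and 122 in the array order above, above the floor on the last only. It did not follow the brighter one. Averaging both gave log2 ratios of -1.05 with FOXOA3 and -0.51 with FOXOA3-mDBD against GFP FSH, of which the second is under 2-fold.

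The signal transducer and its inhibitor differed from each other on the FOXOA3-mDBD array. Smad3, which carries the TGF-beta and activin signal to the nucleus, read 2218 with vehicle, 1783 with FSH alone, 1623 with FOXOA3 and 1021 with FOXOA3-mDBD. Only the first and last of these were more than 2-fold apart, at 2.17-fold, and the log2 ratio of -1.12 became -0.95 after centring on the median ratio of all genes. Its other probe set stayed between 5.7 and 47.4, under the floor throughout.

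Smad7, the inhibitory Smad that binds activated type I receptors, was brightest with FOXOA3-mDBD. Its brightest probe set read 345 with vehicle, 134 with FSH alone, 136 with FOXOA3 and 711 with FOXOA3-mDBD. The next one read 104, 59.2, 133 and 216 in the same order, and the last one 36.6, 30.7, 25.7 and 78.7, under the floor on every array. All 3 probe sets were highest on FOXOA3-mDBD FSH.

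With FOXOA3-mDBD, Smad7 was 5.29-fold above GFP FSH by the brightest probe set and at least 2.15-fold by the next, against 1.02-fold for FOXOA3 by the former. Between the FOXO1 vectors the log2 ratio, FOXOA3 over FOXOA3-mDBD, was -2.38, and 106 of 8605 genes above the floor on both arrays were as low. The mean of the probe sets gave -1.03, and a floor at the 75th percentile left a bound of -0.39, since a signal of 711 lies little above that floor. With FSH alone Smad7 was 2.57-fold lower by the brightest probe set, but the second was at the floor and the mean over probe sets was -0.47.

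The genes that respond to the pathway did not share 1 pattern. Id1, an inhibitor of basic helix-loop-helix factors and a standard BMP target, read 1993 with vehicle, 3216 with FSH alone, 2832 with FOXOA3 and 547 with FOXOA3-mDBD. The first 3 arrays were within 2-fold of each other, and FOXOA3-mDBD FSH stood below all of them. It was 5.88-fold below GFP FSH, 5.18-fold below FOXOA3 FSH and 3.64-fold below GFP vehicle, and these log2 ratios were past 2-fold under all 7 alternatives.

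Id2, its relative, is read by 2 probe sets that part company on the FOXOA3-mDBD array. The brighter one had signals of 2606, 5172, 3318 and 4275 in the array order above. The dimmer one read 361, 602, 476 and 102. They gave like ratios for FSH, 1.98-fold and 1.67-fold higher, and for FOXOA3 against GFP FSH, 1.56-fold and 1.26-fold lower.

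Against GFP FSH, however, FOXOA3-mDBD was 1.21-fold lower by the brighter probe set of Id2 and 5.90-fold lower by the dimmer one. That fold resembled that of Id1, but the dimmer Id2 reading of 102 was just above the floor of 100.5, whereas Id1 read 547. The mean of both Id2 probe sets gave a log2 ratio of -1.42. No call for Id2 on that array can therefore be given from these data. The positions of these probes in the transcript are not stated in the files, and the part of RNA quality, such as the 3' to 5' ratios above, was not tested.

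**Figure D2:**
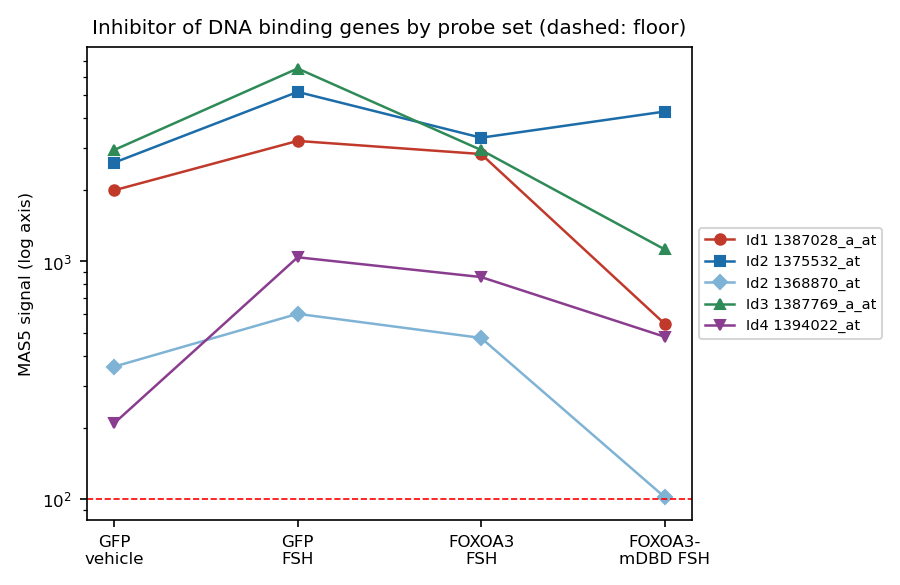
MAS5 signal (log axis) of the Id1, Id2, Id3 and Id4 probe sets on the 4 arrays; lines join the readings of 1 probe set and the dashed line is the floor of 100.5. From GFP FSH to FOXOA3-mDBD FSH, Id1, Id3 and the dimmer Id2 probe set go down by 5.88-fold, 5.77-fold and 5.90-fold, while the brighter Id2 probe set goes from 5172 to 4275. The dimmer Id2 probe set ends at 102, just above the floor.

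Tgfbi, a secreted matrix protein first found as a TGF-beta-induced gene, had the largest ratio of the 9 genes with FSH. Its signal was 77.3 with vehicle, 1469 with FSH alone, 316 with FOXOA3 and 68.2 with FOXOA3-mDBD. Vehicle and FOXOA3-mDBD FSH were both under the floor. The GFP FSH array was at least 14.6-fold above each of them and 4.65-fold above FOXOA3 FSH. The log2 ratio of FOXOA3 FSH over GFP FSH was -2.22, and 34 genes above the floor on both arrays, Tgfbi included, were as low. FOXOA3 FSH was at least 3.15-fold above FOXOA3-mDBD FSH.

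Counted over the genes, GFP FSH against GFP vehicle had 9 of 9 measured, 2 at least 2-fold higher (Amhr2 and Tgfbi) and 3 lower (Bmp4, Tgfb2 and Smad7). Of all 9578 measured genes 6.84% were higher and 11.1% lower by the same rule, 17.9% in either direction. FOXOA3 FSH against GFP FSH had 1 of 9 higher, Tgfb2, and 3 lower, Amhr2, Bmpr2 and Tgfbi, beside 11.1% and 6.99% of 9941 genes, 18.1% in all. FOXOA3-mDBD FSH against GFP FSH had 2 of 9 higher, Tgfb2 and Smad7, and 4 lower, Amhr2, Bmpr2, Id1 and Tgfbi, beside 12.5% and 19.1% of 9748 genes, 31.7% in all. These comparisons share the GFP FSH array, so that a high or low reading there enters all of them.

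The median log2 ratio of the 9 genes was 0.69 with FSH, -0.18 for FOXOA3 and -0.80 for FOXOA3-mDBD, each against the GFP array named above, and that of all measured genes was -0.00, 0.04 and -0.16. Centring on the last of these changed no call of the 9 genes in that comparison. After loess on mean signal, 16.2% of all genes were higher and 13.7% lower with FOXOA3-mDBD, a split that turns from that of 12.5% and 19.1% above. As the genes were chosen with results of these data known, these counts describe them and are no evidence that the group stands apart.

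**Figure D3:**
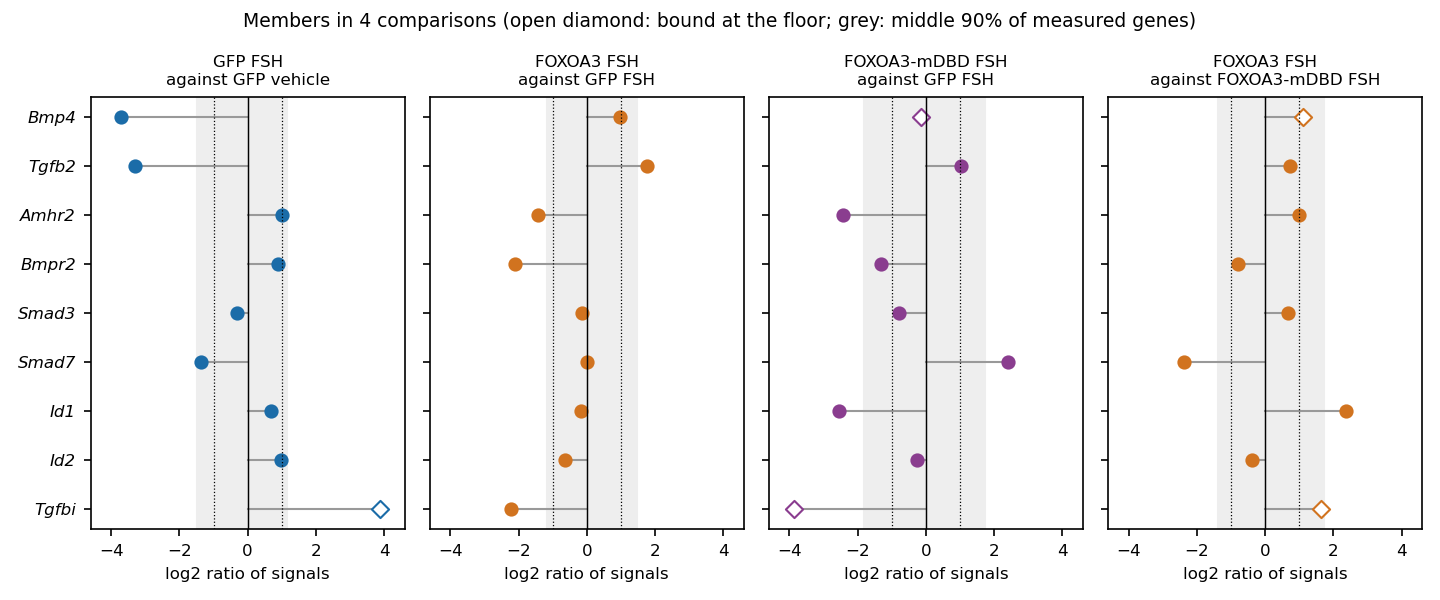
Log2 ratio of the brightest probe set of each of the 9 genes in 4 comparisons; open diamonds are bounds at the floor, dotted lines mark 2-fold and the grey band holds the middle 90% of all measured genes. Bmp4 (-3.70) and Tgfb2 (-3.29) lie far left of the band with FSH, and Smad7 (2.40) lies right of it and Id1 (-2.56) left of it with FOXOA3-mDBD.

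Set directly against each other on FSH-treated cells, the FOXO1 vectors separated 4 of the 9 genes by 2-fold. This comparison crosses the difference in poly-A spikes, 19.7 with FOXOA3 and 311 with FOXOA3-mDBD, and the part of that difference was not tested. With FOXOA3, Id1 was 5.18-fold higher, Tgfbi at least 3.15-fold and Bmp4 at least 2.17-fold, and Smad7 was 5.21-fold lower, while 19.0% of 10092 genes were higher and 9.24% lower, 28.2% in all. The median ratio of all genes was 0.21 here, and centring on it gave 13.0% higher and 13.1% lower. Bmp4 then came to 0.91, under 2-fold, and Bmpr2 became 2-fold lower, so that 2 genes were higher and 2 lower. Without centring, Tgfb2, Amhr2, Bmpr2, Smad3 and Id2 were within 2-fold by their brightest probe sets, at log2 ratios of 0.74, 0.99, -0.80, 0.67 and -0.37. The dimmer probe sets of Tgfb2 and Id2 were 2.33-fold and 4.67-fold higher with FOXOA3, and the next brightest one of Smad7 was 1.63-fold lower.

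Against GFP vehicle, FOXOA3 FSH had 1 gene higher, Tgfbi, and 4 lower, Bmp4, Tgfb2, Bmpr2 and Smad7, beside 5.32% and 4.01% of 9904 genes, 9.33% in all. These 2 arrays share the low spike state. The lower call of Bmpr2, 2.30-fold, and that of Smad7, 2.53-fold, were under 2-fold when the probe sets were averaged, at log2 ratios of -0.60 and -0.33. By its next brightest probe set Smad7 was 1.28-fold higher on FOXOA3 FSH than on GFP vehicle. FOXOA3-mDBD FSH against GFP vehicle had 8 genes measured, with Smad7 2.06-fold higher and Bmp4, Tgfb2, Amhr2, Smad3 and Id1 lower. Of all 9861 genes 13.0% were higher and 22.5% lower, 35.4% in all. This comparison crosses the spike difference.

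The rest of the pathway was read through 66 further entries in 5 lists by role, of which 57 were on the array. The target list held Ccn2 also under its older symbol Ctgf, which is counted among the entries not on the array. With FSH 43 of the 57 were measured, 6 of them higher and 10 lower. With FOXOA3 against GFP FSH it was 10 higher and 4 lower of 43, and with FOXOA3-mDBD 5 higher and 12 lower of 44. Over all measured genes 17.9%, 18.1% and 31.7% were 2-fold apart in these comparisons. None of the list calls changed direction under quantile normalization, centring or loess, but several came under 2-fold. With FSH the counts became 4 higher and 11 lower after quantile normalization or loess. With FOXOA3 they became 8 higher and 2 lower after either of these and 8 and 4 after centring. With FOXOA3-mDBD they became 5 and 10 after quantile normalization, 6 and 7 after centring and 7 and 8 after loess. The medians were -0.30, 0.18 and -0.39 on the log2 scale.

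Among the ligands, 4 of 7 measured genes were higher with FSH and 1 was lower, beside 6.84% and 11.1% of all genes. With FOXOA3 0 of 8 were higher and 3 lower, beside 11.1% and 6.99%. With FOXOA3-mDBD 1 was higher and 3 lower, beside 12.5% and 19.1%. Those higher with FSH were Inhbb, Inhba, Bmp6 and Gdf9, the last from 130 to 262, 2.01-fold. Gdf9 is also on the oocyte list, and the part of oocytes in its signal was not tested. Inhbb, the activin and inhibin beta B subunit, read 993 with vehicle, 11519 with FSH alone, 4235 with FOXOA3 and 3135 with FOXOA3-mDBD, 11.6-fold higher with FSH. The beta A subunit gene Inhba read 10189, 25593, 12609 and 11911, and was 2.51-fold higher with FSH but under 2-fold after quantile normalization or loess. Bmp6 read 411, 1405, 610 and 254, 3.42-fold higher with FSH where Bmp4 was lower, and both were lowest with FOXOA3-mDBD.

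Against GFP FSH, Inhbb was 2.72-fold lower with FOXOA3 and 3.67-fold lower with FOXOA3-mDBD, and Bmp6 2.30-fold and 5.53-fold lower. Tgfb3 was the listed ligand at least 2-fold lower with FSH, by 2.60-fold, with signals of 414, 159, 203 and 281 in the array order above. Bmp2 was 1.99-fold lower with FSH, just inside 2-fold, and read 6339, 3181, 6036 and 3130. Bmp3 was above the floor on FOXOA3-mDBD FSH alone, at 609 beside 38.8, 27.2 and 87.6, at least 6.06-fold above GFP FSH. The array read Tgfb1 at 2.5 to 8.7, under the floor throughout, and Amh itself at 136, 111, 141 and 47.1, near the floor.

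The type I receptor genes Tgfbr1, Bmpr1a and Acvr1 were within 2-fold in all 3 main comparisons. With FSH 0 of 6 measured receptors passed 2-fold, beside 17.9% of all genes. Under FOXOA3 2 of 5 were higher, beside 11.1%, and under FOXOA3-mDBD 1 of 5, beside 12.5%. Acvr2a, a type II receptor for activin and some BMPs, read 625 with vehicle, 436 with FSH alone, 1782 with FOXOA3 and 3641 with FOXOA3-mDBD. It was 4.09-fold and 8.36-fold above GFP FSH with the FOXO1 vectors, whereas Bmpr2 and Amhr2 were below it. Acvr2b was 2.37-fold higher with FOXOA3, from 103 to 244, and under 2-fold after quantile normalization or loess.

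Of the Smads of the BMP branch, Smad1 was lowest on GFP FSH, at 944, beside 2617 with vehicle, 2547 with FOXOA3 and 2656 with FOXOA3-mDBD. That made it 2.77-fold lower with FSH and 2.70-fold and 2.81-fold higher with the vectors. Smad9 read 1178, 759, 735 and 117, and was 6.49-fold lower with FOXOA3-mDBD than with GFP. Smad6, the other inhibitory Smad, read 388, 140, 274 and 57.1, 2.78-fold lower with FSH, and on FOXOA3-mDBD FSH it was under the floor where Smad7 was at its brightest. Smad2, Smad4 and Smad5 were within 2-fold in all 3 main comparisons.

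Beside 6.84% higher and 11.1% lower of all genes, 0 of 14 measured inhibitors of the pathway or binders of its ligands were higher with FSH and 2 lower. These were Smurf1, a ubiquitin ligase for Smads, at 946 with vehicle, 306 with FSH alone, 617 with FOXOA3 and 214 with FOXOA3-mDBD, and the BMP antagonist noggin (Nog) at 243, 64.6, 202 and 113. Smurf1 was 3.09-fold lower with FSH and Nog at least 2.42-fold. With FOXOA3 against GFP FSH, Ltbp1, which tethers latent TGF-beta to the matrix, was 2.78-fold higher, Smurf1 2.02-fold and Nog at least 2.01-fold, the latter pair under 2-fold after any of the 3 rescalings.

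Ltbp1 read 1308, 900, 2502 and 450 in the array order above. With FOXOA3-mDBD 4 of 14 inhibitors or ligand binders were lower, beside 19.1% of all genes. They included the pseudoreceptor Bambi, at 2147, 4064, 2564 and 1362 and 2.98-fold lower, Ltbp3, at 1663, 1024, 1451 and 434 and 2.36-fold lower, and the BMP-binding protein Twsg1, at 4322, 5863, 3840 and 2666 and 2.20-fold lower. Twsg1 came under 2-fold after centring, Ltbp3 after loess, and Ltbp1, the other lower one, after any of the 3 rescalings. Gremlin (Grem1), a BMP antagonist, was above the floor on FOXOA3-mDBD FSH alone, at 216 beside 19.2, 4.3 and 32.2, at least 2.15-fold higher.

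Pathway-responsive genes went both ways with FSH, 2 of 10 measured being higher and 5 lower, beside 6.84% and 11.1% of all genes. With FOXOA3 4 of 11 were higher and 1 lower, beside 11.1% and 6.99%. With FOXOA3-mDBD 1 of 11 was higher and 4 lower, beside 12.5% and 19.1%. Id4 read 208 with vehicle, 1041 with FSH alone, 860 with FOXOA3 and 482 with FOXOA3-mDBD, 5.00-fold higher with FSH. Id3 read 2946, 6489, 2946 and 1125, 2.20-fold higher with FSH, a call that quantile normalization and loess put under 2-fold. With FOXOA3-mDBD against GFP FSH, Id3 was 5.77-fold and Id4 2.16-fold lower, although Id4 came under 2-fold after centring or loess. With FOXOA3 against GFP FSH, Id1 and Id4 were within 2-fold and Id3 was 2.20-fold lower, under 2-fold after quantile normalization or loess.

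Lower with FSH were Atoh8, a basic helix-loop-helix factor, by 8.92-fold, Tgfb1i1, a focal adhesion protein first found as TGF-beta-inducible, by 6.26-fold, and the matricellular protein Ccn2 by 3.02-fold. Atoh8 read 1274, 143, 777 and 108 in the array order above, which made it 5.44-fold higher with FOXOA3 than on GFP FSH. Tgfb1i1 read 7092, 1132, 2938 and 1147, and was 2.60-fold higher with FOXOA3. Atoh8 had the arrays in the same order as Bmp4, and Tgfb1i1 in the same order as Tgfb2. These orders rest in part on small differences between GFP FSH and FOXOA3-mDBD FSH. That pair was 1.32-fold apart for Atoh8 and at least 1.11-fold for Bmp4, and 1.01-fold for Tgfb1i1 where Tgfb2 had 2.05-fold.

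Ccn2 read 17445, 5773, 13537 and 9949 in that order. Cdkn1a, the CDK inhibitor p21, was 3.94-fold higher with FOXOA3 than on GFP FSH, with signals of 3904, 1436, 5657 and 1721. Klf10, an early TGF-beta-inducible factor, read 811, 1249, 718 and 491, and was 2.54-fold lower with FOXOA3-mDBD. Msx1, a homeobox gene induced by BMPs in many tissues, read 6.8, 60.6, 105 and 656, at least 6.53-fold above GFP FSH with FOXOA3-mDBD.

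**Figure D4:**
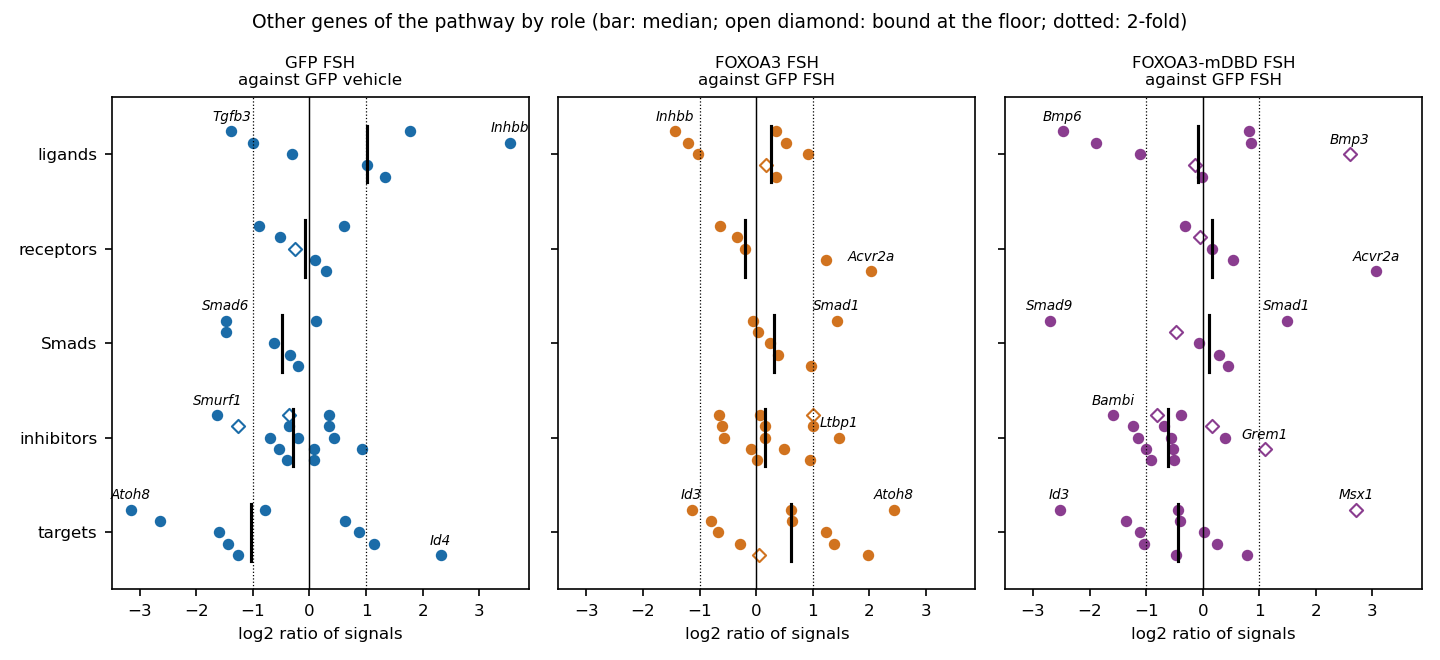
Log2 ratio of each measured gene of the 5 role lists in the 3 main comparisons, with the list median as a bar, bounds at the floor as open diamonds and 2-fold as dotted lines; the outermost genes past 2-fold are named. Targets have a median of -1.02 with FSH, 0.62 with FOXOA3 and -0.43 with FOXOA3-mDBD, beside -0.00, 0.04 and -0.16 over all measured genes. All 3 comparisons share the GFP FSH array, so that its readings enter each median. Acvr2a is the receptor farthest right with both FOXO1 vectors.

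The genes whose 4 signals most resembled those of a member were sought among 10407 genes above the floor on at least 1 array. The measure was the root mean square difference of log2 signals, each gene centred on its own mean. Signals were first raised to the floor, so that readings under it count as equal. Only 4 arrays enter, so that near matches are easily found, and the values are a description. For Bmp4 they were Septin4, a filament-forming GTPase, at 0.15, Acta2 at 0.26 and the small heat shock protein gene Cryab at 0.32. For Tgfb2 they were the histone deacetylase Hdac5 at 0.07, Lratd1 at 0.12 and the endocytic adaptor Dab2 at 0.18. Acta2 was among the smooth muscle markers given above.

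Bmpr2 had as its nearest genes the kinesin Kif20b at 0.06, the kinetochore component Kntc1 at 0.12 and the spindle protein Tacc3 at 0.13. Kif20b read 236 with vehicle, 479 with FSH alone, 94.7 with FOXOA3 and 190 with FOXOA3-mDBD. Amhr2 had Borcs7 at 0.04, Dglucy at 0.08 and the phosphatase Pgp at 0.09. Id1 had Armh4 at 0.06 and Ilvbl and the membrane skeleton protein gene Epb41l1 at 0.10 each. Smad7 had Cyp2j10 at 0.21, the corepressor gene Runx1t1 at 0.26 and Fem1b at 0.28, and Tgfbi had the inositol phosphate synthase Isyna1 and Asphd2 at 0.29 and the arginine synthesis enzyme Ass1 at 0.30. Smad3 and Id2 varied by less than 4-fold by their brightest probe sets and were not matched.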

How the data were processed

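Expression had been measured on 4 single-colour rat arrays, 1 per group. The authors' deposited values were intensity values on a linear scale, made by MAS5, per the submitters' processing notes, with no version or setting stated there. MAS5 scales each array to a common mean, and the 2% trimmed means were 500.1 to 500.2, so that no further scaling was applied; differences in total RNA per cell are hidden by this, and ratios of dim probe sets are noisy. The 57 control probe sets were left out.

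Of the rat probe sets 20826 had 1 gene symbol in the platform annotation, 436 had several and 9780 none; the latter kinds were left unnamed. Of the named ones 99.7% had an identifier in a current rat gene table. A gene is represented by its probe set of highest mean signal. Log2 ratios were taken of floored signals in 6 comparisons, with a 2-fold threshold, in Python 3.11.15 with pandas 2.3.3. Named were all members and, per role list and direction in each main comparison, the 3 genes with the largest ratios past 2-fold; other list genes were named after their values were seen. Only the ratio and call steps were tested on simulated data, in 1 comparison, with changes past 2-fold planted in genes well above the floor. No change was planted near the floor. The alternatives were 2 other floors, a pseudocount, quantile normalization, centring, loess (statsmodels 0.14.6, span 0.3) and the mean of probe sets. The members and lists were chosen with earlier results of these data known.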

Additional observations from a re-analysis of the deposited data

How the results depend on the processing

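All 30 member log2 ratios past 2-fold kept their direction under each of the 7 alternatives that gave a value, and 18 of them stayed past 2-fold under each; 12 came under 2-fold under at least 1. Of 42 recomputed counts of members 2-fold apart, 39 were within 1.5 times of the reported count. The others were FOXOA3 FSH against FOXOA3-mDBD FSH, with 1 in place of 4 under the 75th percentile floor, and FOXOA3 FSH against GFP vehicle, with 3 in place of 5 under that floor and under the mean of probe sets. That floor left 7 of 9 members measured in these comparisons. Loess turned the split of all genes from 13.0% higher and 22.5% lower to 16.7% and 15.3% for FOXOA3-mDBD FSH against GFP vehicle, and from 19.0% and 9.24% to 10.2% and 12.9% for FOXOA3 FSH against FOXOA3-mDBD FSH. No paired analysis was possible because each group had 1 array. Signal over background limits Bmp4, Tgfbi and Smad7 the most, since their dim readings lay near or under the floor. It also limits the dimmer Id2 probe set on FOXOA3-mDBD FSH, which read 102.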
